A study of Drosophila montana and Drosophila virilis with 10 samples.

Results

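The genes described here are 208 of the 15342 gene identifiers in the files. The mean level of each of them was at least 2-fold lower in cold-acclimated than in control D. virilis and nearly level in D. montana, where a level is a CPM value, the read count scaled to the gene reads of its library. They were selected on these measured levels in all 10 libraries. A gene had to average at least 10 CPM in each species, which left 7042 genes. Both acclimated D. virilis libraries had to lie below both control libraries, which left 2183, and the ratio of the mean acclimated to the mean control level, after adding 1 CPM to each, had to be 0.5 or less, which left 364. The same ratio in D. montana had to lie between 0.833 and 1.2, which left the 208, or 2.95% of the 7042.

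The series comprised messenger RNA of whole flies from 4 groups, sequenced on SOLiD instruments. Acclimated D. virilis (2 libraries, stated ages 29 and 30 days after eclosion) was set against control D. virilis kept at ambient temperature (2 libraries, 27 and 28 days). Acclimated D. montana (3 libraries, 24 to 26 days) was set against control D. montana (3 libraries, 21 to 23 days). All D. virilis flies were of strain TOY3F9 from Toyama, Japan, in pools of 20, and all D. montana flies of strain 175OJ8 from Oulanka, Finland, in pools of 10. Each species was thus a single strain. The stated ages increase by 1 day per sample in the order of deposit, from 21 to 30, so it is doubtful that they are true ages, and as stated they cannot be told apart from acclimation in either species. The sources used here do not state temperature, length of acclimation or sex.

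Cold acclimation is the gain in tolerance that insects acquire during a stay at a moderately low temperature. In Drosophila it is known to accompany changes in membrane lipids, small metabolites, ion balance and gene expression. D. montana is a boreal species that overwinters as an adult in reproductive diapause, whereas D. virilis is its relative from warmer regions and is known to be less cold tolerant. Genes that change in one of these species and stay level in the other are of interest because they separate a shared response from a species' own. In RNA of whole flies, fewer cells of a kind and less RNA per cell cannot be told apart.

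No gene name could be attached to the 208 identifiers: the name table at hand, made for an assembly of D. montana, contained 0 of the 15342. They are given by identifier alone, with no function or sequence. Of the 208, 206 have numbers in the block from FBgn0197 to FBgn0212, and the remaining 2 are FBgn0013146 and FBgn0041649. CPM is not corrected for transcript length, so it orders genes by reads and not by transcripts.

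Gene reads numbered 987461 and 1316804 in the acclimated D. virilis libraries, against 650517 and 931704 in the controls, and 1518027 to 2235850 in the D. montana libraries. The level that 0 reads would still permit (3 reads, counting error only) was 2.28 to 4.61 CPM across D. virilis libraries and 1.34 to 1.98 CPM across D. montana libraries. Reads placed at more than 1 position, which were not counted for genes, made up 83.0% ± 0.44 of acclimated and 76.6% ± 1.4 of control D. virilis reads (SD, n = 2 each), and their part in the lower levels of the 208 genes was not tested. In plain CPM the median of the 7042 genes itself lay 0.13 log2 units lower in acclimated D. virilis, and 0.0065 lower after trimmed-mean (TMM) scaling, so changes of single genes are to be read against that shift. The median of the 208 genes was −1.21 in plain CPM and −1.10 with TMM scaling.

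Most of the 208 genes lay close to the chosen bound. The ratio in D. virilis was between 0.4 and 0.5 in 131 of them (63.0%), a difference of 2-fold to 2.5-fold. It was between 2.5-fold and 4-fold lower in 60 genes, 4-fold to 8-fold lower in 13 and at least 8-fold lower in 4. The 3 genes just inside the bound, FBgn0203382, FBgn0204105 and FBgn0207064, had ratios of 0.498, 0.498 and 0.499, and the 3 just outside it, FBgn0203973, FBgn0207144 and FBgn0206943, had ratios that exceeded it by less than the 3 inside fell short of it, at most 0.501. In D. montana the ratios of the 208 genes ran from 0.835 to 1.195. The nearest excluded genes there had 0.831 and 1.23. The lowest mean level of a chosen gene was 10.01 CPM in D. virilis and 10.3 CPM in D. montana, and the nearest excluded genes had 9.90 and 9.73 CPM.

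**Figure D1:**
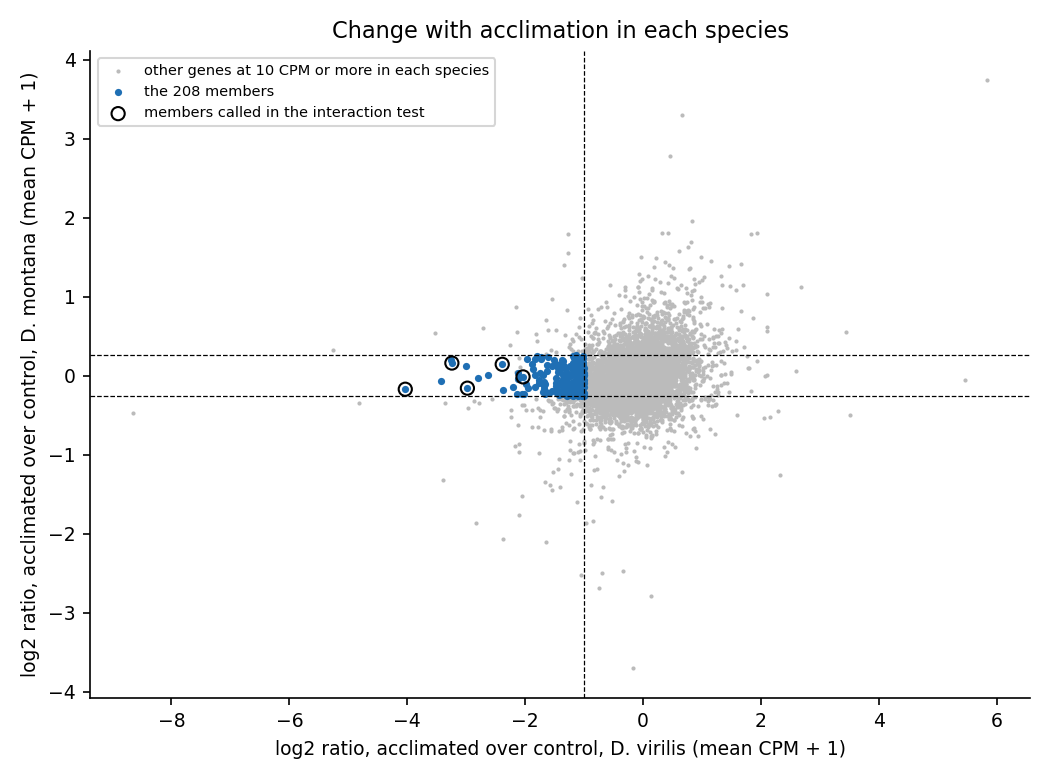
Log2 ratio of mean CPM + 1, acclimated over control, in D. virilis (horizontal axis) and D. montana (vertical axis). Each point is a gene with a mean of 10 CPM or more in each species, blue points are the 208 chosen genes, open circles the 5 of them called in the interaction test, and dashed lines the bounds of the rule. Grey points inside the bounds are genes whose D. virilis libraries overlapped between groups. Most blue points crowd against the bound at −1, and the 5 circled genes lie at −2.0 or below.

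The median gene of the set had a D. virilis level well under that of D. montana in acclimated flies and close to it in control flies. Mean levels had a median of 14.8 CPM (quartiles 9.05 and 25.0) in acclimated D. virilis, against 38.2 CPM (25.8 and 61.6) in control D. virilis. In D. montana the medians were 43.3 CPM in acclimated and 42.9 CPM in control flies. The 7042 genes had medians of 47.0 and 52.3 CPM in acclimated and control D. virilis, and 57.6 and 60.1 CPM in acclimated and control D. montana. In control flies, 101 of the 208 genes (48.6%) had a higher CPM in D. virilis than in D. montana, with a median ratio of 0.95, close to the 48.2% and 0.97 over the 7042 genes. In acclimated flies only 14 of the 208 (6.73%) were higher in D. virilis, with a median ratio of 0.39, against 43.5% and 0.90 over the 7042 genes. A low acclimated level is what the genes were chosen for, so these ratios are descriptive. Species also cannot be told apart here from strain, pool size and match to the annotation.

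**Figure D2:**
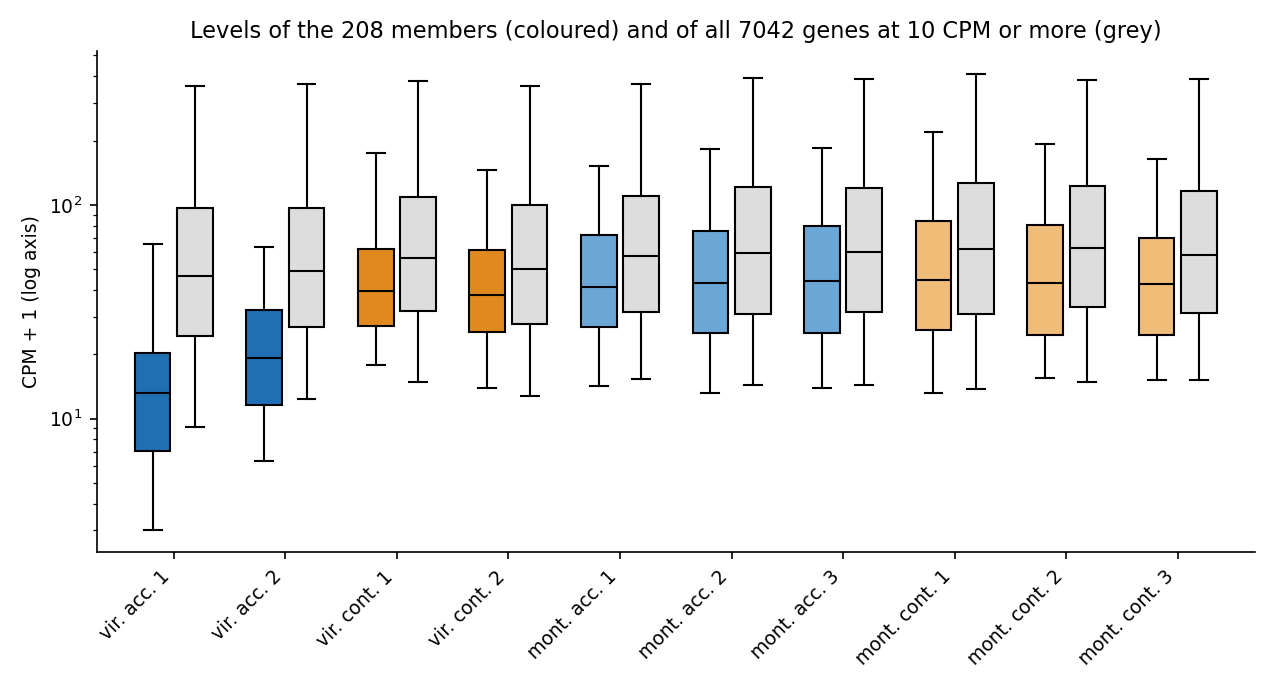
Levels in each library as CPM + 1 on a log axis, for the 208 genes (coloured boxes) and for all 7042 genes with 10 CPM or more in each species (grey boxes). Boxes show the median and quartiles, whiskers the 5th and 95th percentiles over genes, acc. is acclimated and cont. control. The medians of the 208 genes were 12.2 and 18.2 CPM in the acclimated D. virilis libraries and between 37.0 and 43.3 CPM in the other 8.

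The largest difference was that of FBgn0206911, at 81.0 and 34.9 CPM in acclimated D. virilis, against 509 and 1421 CPM in the controls. Its acclimated mean was 16.4-fold lower. In D. montana it had 76.4, 98.6 and 89.0 CPM in acclimated and 112.6, 80.4 and 104.7 CPM in control flies, so the acclimated D. virilis libraries were within or below the D. montana range and the control D. virilis libraries far above it.

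FBgn0197572 took by far the most reads among the 208 genes. It had 2069 and 287 CPM in the acclimated D. virilis libraries, against 7951 and 17511 CPM in the controls, or up to 1.75% of all gene reads in a control library. The rule required that the groups not overlap, and the acclimated libraries differed from each other by more than 7-fold. In D. montana its levels were 36.5, 57.6 and 42.9 CPM in acclimated and 49.6, 52.0 and 41.8 CPM in control flies, and the D. virilis to D. montana ratio was 25.2 in acclimated and 261 in control flies.

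FBgn0202713 had the same order of libraries. Its levels were 503 and 47.1 CPM in acclimated D. virilis, against 1111 and 4201 CPM in the controls, whereas every D. montana library lay between 31.6 and 46.1 CPM. Acclimated library 2 of D. virilis was thus just above the D. montana range for this gene, and library 1 was more than 10 times higher.

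FBgn0206770 had 483 and 240 CPM in acclimated D. virilis, against 2995 and 2724 CPM in the controls. Its control libraries were close together, at 2859 ± 191 CPM (SD, n = 2), and its acclimated mean was 7.89-fold lower. D. montana libraries held 44.3 to 55.9 CPM in acclimated and 47.9 to 61.3 CPM in control flies. FBgn0205361 had 468 and 359 CPM in acclimated D. virilis, against 1182 and 2216 CPM in the controls, and 231 to 247 CPM in acclimated and 224 to 251 CPM in control D. montana. Both genes were high in D. virilis in either condition compared with D. montana.

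Among the 8 lowest ratios were also 3 genes with few reads and FBgn0197345. FBgn0210854 had 2 and 8 reads (2.03 and 6.08 CPM) in acclimated D. virilis, against 33 and 40 reads (50.7 and 42.9 CPM) in the controls. FBgn0206010 had 2 and 12 reads (2.03 and 9.11 CPM) in acclimated libraries, against 27 and 45 reads (41.5 and 48.3 CPM) in the controls. FBgn0202127 had 2 and 5 reads in acclimated libraries, against 10 and 29 in the controls. For all 3 genes the lower acclimated library was library 1. FBgn0197345 had 9.11 and 39.5 CPM in acclimated D. virilis, against 355 and 47.2 CPM in the controls, so its 7.99-fold difference between means rests on control 1. Without control 1 its D. virilis log2 fold change was −0.88, against −2.82 with every library.

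FBgn0201648 had libraries close to each other within both D. virilis groups. It had 23.3 and 35.7 CPM in acclimated D. virilis, against 173.7 and 143.8 CPM in the controls, a 5.24-fold lower mean. Its D. montana levels were 69.3 to 72.5 CPM in acclimated and 53.4 to 72.7 CPM in control flies, between those of the D. virilis groups.

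**Figure D3:**
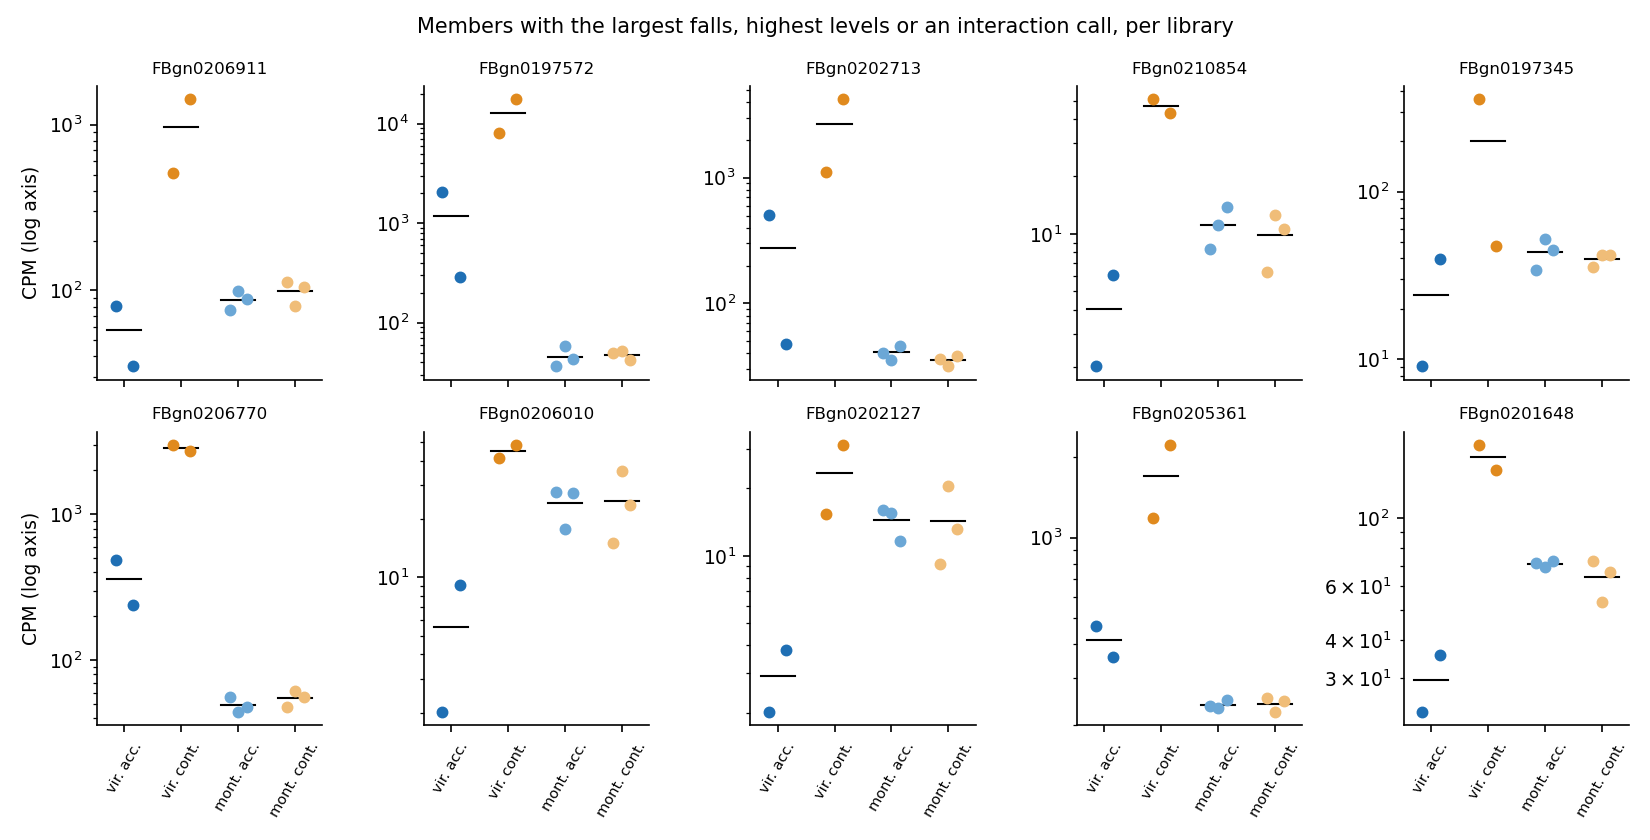
CPM per library on a log axis for the 10 genes with the lowest ratios, the most reads in D. virilis controls or an interaction call. Points are libraries, black lines group means, vir. is D. virilis, mont. D. montana, acc. acclimated and cont. control, and each panel has its own scale. In FBgn0197572, FBgn0202713, FBgn0206770 and FBgn0205361 all D. virilis libraries lie above all D. montana libraries, and in the other 6 panels an acclimated D. virilis library lies within or below the D. montana range.

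A set of 8 genes had at least 4 times the D. montana level in control flies, or 3.85% of the 208, against 1.56% of the 7042 genes. They were FBgn0197572, FBgn0202713, FBgn0206770, FBgn0206911, FBgn0203782, FBgn0205361, FBgn0197345 and FBgn0210854, and their D. virilis ratios had a median of 0.115, against 0.432 over the 208. Of these, FBgn0203782 had 156 and 31.9 CPM in acclimated D. virilis, against 326 and 662 CPM in the controls, and 58.8 ± 1.4 CPM in acclimated and 67.0 ± 4.5 CPM in control D. montana (SD, n = 3 each). In acclimated flies, 3 of the 208 genes still had at least 4 times the D. montana level. Of the 208 genes, 8 (3.85%) were at least 4-fold lower in control D. virilis than in control D. montana, against 4.84% of the 7042. In acclimated flies 58 (27.9%) were so, against 6.76%. The rule asked for low acclimated levels in D. virilis, so the count of 58 is descriptive. The median of 0.115 is so too, because the D. virilis control level enters both the choice of those genes and their D. virilis ratio. The share of genes at 4 times the D. montana level in control flies is likewise descriptive, because the rule uses the D. virilis control level.

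As a share of gene reads, the 208 genes together took 0.70% and 0.57% in acclimated D. virilis, against 2.43% and 3.84% in the controls. In D. montana they took 1.19% to 1.31% in acclimated and 1.27% to 1.39% in control flies. Much of the D. virilis share came from 4 genes, FBgn0197572, FBgn0206770, FBgn0202713 and FBgn0205361. Without these 4, the share was 0.35% and 0.47% in acclimated and 1.11% and 1.17% in control D. virilis, and 1.16% to 1.28% in acclimated and 1.23% to 1.35% in control D. montana. The control shares of the species then lay close together, and the acclimated D. virilis libraries stood apart from the other 8. The rule asked for lower acclimated levels in D. virilis and near-level ones in D. montana, so this gap follows from the choice of genes.

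The 2 acclimated D. virilis libraries did not contribute alike. Library 1 was below library 2 for 159 of the 208 genes (76.4%), against 64.6% of the 2183 genes with both acclimated libraries below both controls and 54.8% of the 7042 genes, and the median difference, library 2 minus library 1, was 0.56 log2 units, against 0.067 over the 7042. Relative to the control mean the median ratio was 0.328 in library 1 and 0.481 in library 2. Taken singly, both libraries were at or below 0.5 of the control mean for 91 genes, library 1 alone for 96 and library 2 alone for 21. Over the 7042 genes, 13.2% were at or below 0.5 in library 1 and 5.30% in library 2. The rule does not name which acclimated library is lower, but it asks for a low acclimated mean, and low values were more frequent in library 1 over all genes. The part of that choice in the order was not tested.

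This order was as frequent among genes with few reads as among those with many, but less so at the very top. With the 208 genes split into 3 classes by their mean over the 4 D. virilis libraries, library 1 was the lower one for 54 of 69, 53 of 69 and 52 of 70 genes. The D. virilis ratio had a median of 0.406, 0.438 and 0.440 in the 3 classes, from least to most reads. Of the 24 genes with at least 100 CPM in D. virilis controls, library 2 was the lower one for 11. Those 11 include FBgn0197572, FBgn0202713, FBgn0206770, FBgn0206911, FBgn0203782 and FBgn0205361. Of the 2183 genes, 143 and 100 with at least 100 CPM in D. virilis controls had acclimated 2 lowest, with control 1 or 2 highest. With acclimated 1 lowest there were 246 and 150 such genes. With acclimated 2 lowest and control 2 highest, 23 of the 208 genes (11.1%) shared the library order of FBgn0197572, against 15.8% of the 2183. Of the 8 genes high in D. virilis, 5 were among them. Of the 2183 genes, those with at least 4 times the D. montana control level numbered 20 in this order. They numbered 10 and 6 with control 1 highest and acclimated 1 or 2 lowest, and 9 with control 2 highest and acclimated 1 lowest. Control 1 was highest and acclimated 1 lowest in 89 of the 208 genes (42.8%, against 36.3% of the 2183). Control 2 was highest and acclimated 1 lowest in 70 (33.7%, against 28.3%), and control 1 highest and acclimated 2 lowest in 26 (12.5%, against 19.6%).

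**Figure D4:**
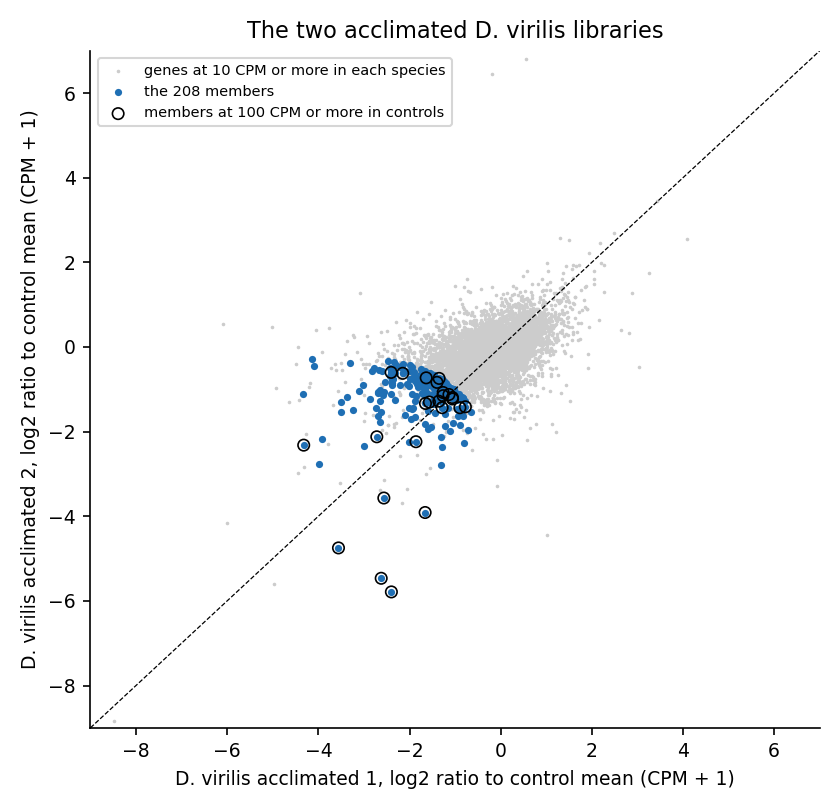
Log2 ratio of CPM + 1 in acclimated D. virilis library 1 (horizontal axis) and library 2 (vertical axis) to the mean of the control libraries. Blue points are the 208 genes, grey points the 7042 genes with 10 CPM or more in each species, open circles the 24 chosen genes with at least 100 CPM in controls, and the dashed line marks equal values. Of the 208 genes, 159 lie left of the line, and a few circled genes lie far below it.

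Counting error is large for many of these genes. The median gene of the set had 12 and 24 reads in the acclimated D. virilis libraries, against 25 and 34.5 in the controls, and 64 to 96 in the D. montana libraries. Under 10 reads were counted in both acclimated D. virilis libraries for 17 genes and in at least 1 of them for 94. A count of 0 occurred in 2 genes, FBgn0202190 and FBgn0206454, in acclimated library 1, while acclimated library 2 had 11 and 15 reads of them. The median SD of log2 CPM within groups was 0.50 in D. virilis for the 208 genes, against 0.29 for the 7042, and in D. montana 0.23 against 0.22. Acclimated D. virilis libraries were more than 2-fold apart for 75 of the 208 genes (36.1%), against 12.5% of the 7042, and control libraries for 31 (14.9%), against 7.24%. The parts of counting error and of the choice of genes in this wider D. virilis spread were not tested.

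In edgeR's quasi-likelihood fits of each whole table, the 208 genes had a median log2 fold change of −1.12 in D. virilis (median SE 0.51, 202 genes past the expression filter) and −0.05 in D. montana (median SE 0.20, all 208 genes past it). Over the 7042 genes the medians were −0.01 and −0.03. The rule used both contrasts, so the calls that follow are descriptive. Of the 202 genes tested in D. virilis, 3 were called lower at an adjusted p-value under 0.05 (1.49%), where 0.130% of all 7692 tested genes were called lower. They were FBgn0206911 (−3.97 log2 units, SE 0.57, edgeR adjusted p = 0.035), FBgn0206770 (−2.85, SE 0.32, edgeR adjusted p = 0.023) and FBgn0201648 (−2.29, SE 0.28, edgeR adjusted p = 0.023). The number of genes of the set called lower was 1 without D. virilis control 2, 5 without control 1, 10 without acclimated 1 and 22 without acclimated 2. The share of all tested genes called lower moved with it, at 0.0368%, 0.273%, 0.601% and 0.934% in the same order. Unadjusted p-values were under 0.05 for 119 of the 202 genes (58.9%), against 12.8% of all 7692.

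FBgn0197572, despite its level, was not called (−3.31 log2 units, SE 0.79, edgeR adjusted p = 0.118), nor was FBgn0202713 (−3.16, SE 0.96, edgeR adjusted p = 0.215). Libraries of 1 group differed several-fold in both. FBgn0197572 was called in 4 of 9 alternatives: without a filter on low counts, without control 1 (−3.82), without acclimated 1 (−5.40) and without acclimated 2 (−2.49), whereas its estimate without control 2 was −2.52. FBgn0202713 was called in 2 of 9, without a filter and without acclimated 1 (−5.76), and its estimate without control 2 was −1.78. FBgn0205361 had an estimate of −1.93 log2 units (SE 0.32, edgeR adjusted p = 0.055) and FBgn0210854 by −3.31 (SE 0.58, edgeR adjusted p = 0.060), neither of them past the threshold. They passed it in 6 of 9 and in 3 of 8 alternatives.

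In D. montana, where the rule asked for level values, log2 fold changes of the 208 genes ran from −0.25 to 0.30. FBgn0206155 had the lowest D. montana log2 fold change (−0.25, SE 0.23) and FBgn0203011 the highest (0.30, SE 0.22). By the ratio of the rule, 130 of the 208 genes (62.5%) were below 1 in D. montana, against 59.5% of the 7042, a share near that of the background. The genes nearest the edges of the D. montana band were FBgn0200112 and FBgn0206155 (ratios 0.835 and 0.836) and FBgn0210303 and FBgn0203011 (1.19 and 1.195). FBgn0210303 had 2 and 9 reads (2.03 and 6.84 CPM) in acclimated D. virilis, against 17 and 9 reads (26.1 and 9.66 CPM) in the controls. It did not pass the expression filter in D. virilis and was not tested there. Its D. montana levels were 61.5 to 71.6 CPM in acclimated and 43.3 to 62.5 CPM in control flies.

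The difference between the species was tested as an interaction over all 10 libraries, D. virilis change minus D. montana change. Of the 208 genes, 5 were called with a more negative change in D. virilis (2.40%), where 0.143% of all 9811 tested genes were. Their differences were −2.41 for FBgn0201648 (SE 0.31, edgeR adjusted p = 0.0024), −2.69 for FBgn0206770 (SE 0.36, edgeR adjusted p = 0.0024), −3.81 for FBgn0206911 (SE 0.54, edgeR adjusted p = 0.0033), −1.92 for FBgn0205361 (SE 0.35, edgeR adjusted p = 0.024) and −3.48 for FBgn0210854 (SE 0.65, edgeR adjusted p = 0.029). The rule used both changes, so these 5 calls are descriptive and do not by themselves show a response particular to D. virilis. For the rest no difference between the species was called by this test. FBgn0197572 (difference −3.26, SE 0.77, edgeR adjusted p = 0.108) and FBgn0202713 (−3.38, SE 0.92, edgeR adjusted p = 0.182) were among those. The number of genes of the set called was 42 without D. virilis acclimated 2, 8 without acclimated 1, and 3 without D. montana control 2, acclimated 2 or acclimated 3. Of all tested genes, 1.16% were called in this direction without D. virilis acclimated 2, 0.265% without acclimated 1, and 0.0805%, 0.0829% and 0.104% without those D. montana libraries.

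Among all 364 genes that met the D. virilis part of the rule, 208 (57.1%) were within the D. montana band, 129 (35.4%) were below it and 27 (7.42%) above it. Over the 7042 genes the shares were 64.2%, 20.6% and 15.2%. The mirror rule, for genes at least 2-fold higher in acclimated D. virilis and level in D. montana, chose 39 genes in plain CPM, against 208 lower ones. With TMM-scaled library sizes the counts were 67 higher and 145 lower, so the ratio between the directions depended on the scaling.

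Membership depended on single libraries of both species. Without a D. virilis library its group keeps 1, so the rule asks less for separation and the group mean is the level of that library. Without acclimated 2 the rule chose 567 genes, 187 of them among the 208, and without acclimated 1 it chose 213, of which 112 were among the 208. The rule was met by 50 of the 208 genes whichever D. virilis library was left out, and by 22 whichever of the 10 libraries was left out. The 22 include FBgn0197572, FBgn0206770, FBgn0205361 and FBgn0201648. FBgn0206911, FBgn0202713 and FBgn0210854 met the rule whichever D. virilis library was left out, and missed it only when a D. montana library was left out. The D. montana ratio of FBgn0206911 was 0.812 without control 2, that of FBgn0202713 was 1.215 without acclimated 2, and that of FBgn0210854 was 1.25 without acclimated 1 and 1.28 without control 2. FBgn0210854 also fell under the minimum level without D. montana acclimated 3. For the 22, D. virilis ratios ran from 0.093 to 0.431 and D. montana ratios from 0.877 to 1.11. Mean levels of the 22 had medians of 17.0 CPM in acclimated and 56.9 CPM in control D. virilis, and 80.4 CPM in acclimated and 81.5 CPM in control D. montana.

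Several of these 22 genes had control libraries close to each other. FBgn0198078 had 10.1 and 8.35 CPM in acclimated D. virilis, against 43.0 and 44.0 CPM in the controls, with 31.1 ± 5.8 CPM in acclimated and 30.2 ± 5.9 CPM in control D. montana (SD, n = 3 each). FBgn0041649, one of the 2 identifiers outside the main number block, had 14.2 and 17.5 CPM in acclimated D. virilis, against 61.5 and 55.8 CPM in the controls, with 33.4 ± 3.7 CPM in acclimated and 36.8 ± 9.1 CPM in control D. montana. FBgn0206112 was low in D. virilis throughout, at 5.06 and 6.08 CPM in acclimated and 20.0 and 22.5 CPM in control flies, while D. montana held 97.5 ± 5.9 CPM in acclimated and 104.2 ± 0.44 CPM in control flies. FBgn0200351 had 31.4 and 35.7 CPM in acclimated D. virilis, against 79.9 and 86.9 CPM in the controls. These 4 genes were picked from the 22 after their values had been seen, and none of them was called in D. virilis (edgeR adjusted p-values of 0.091, 0.086, 0.258 and 0.121).

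**Figure D5:**
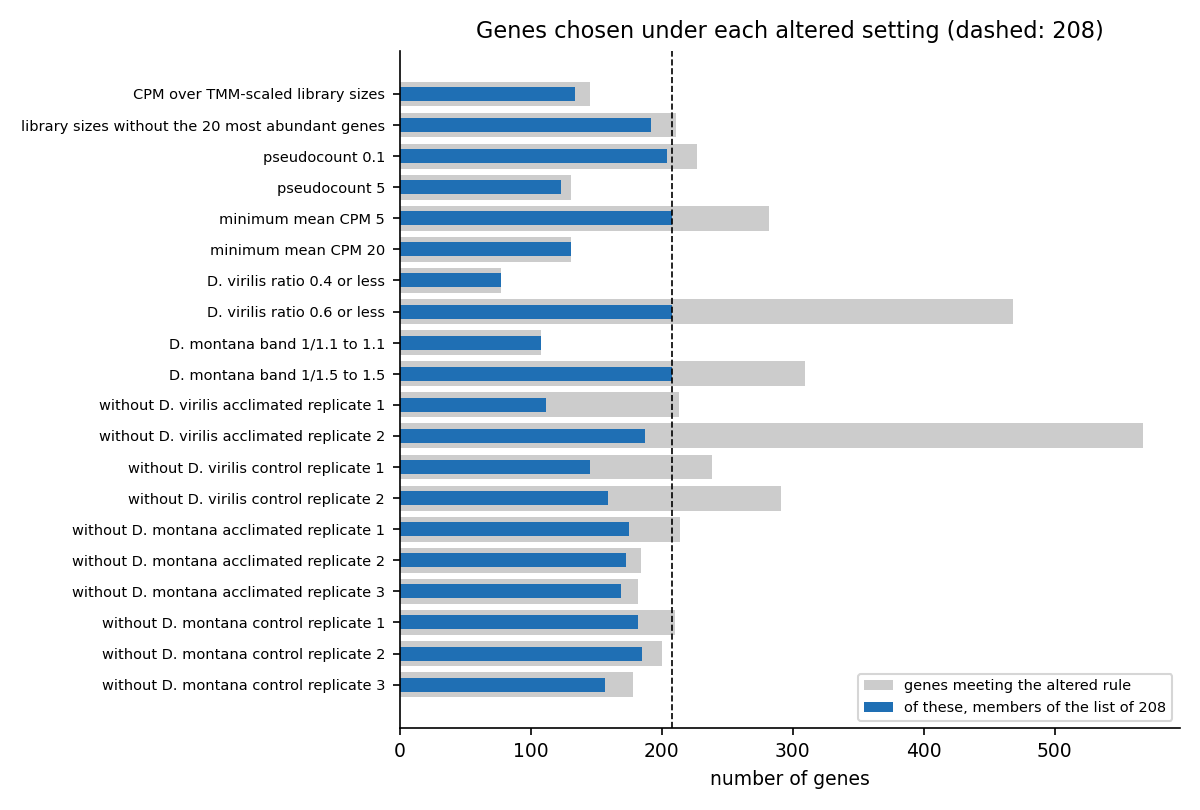
Number of genes meeting the rule under each altered setting (grey bars) and how many of them belong to the 208 (blue bars), with the dashed line at 208. Leaving out D. virilis acclimated library 2 gave the longest bar, at 567 genes, and a D. virilis ratio of 0.4 or less the shortest, at 77.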

How the data were processed

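The authors deposited unnormalised read counts for each gene identifier. HTSeq is named in the submitters' processing notes, while aligner, build, annotation and mode of counting were not given in the sources used here. Each file ends in 5 counters without a gene name, which held 90.4% to 93.2% of D. virilis and 73.6% to 76.9% of D. montana reads and were left out of totals and tests. Genes with near-identical copies may be undercounted, since reads placed more than once are among these counters.

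CPM were computed over gene reads only, with a pseudocount of 1 CPM in ratios. Fits used edgeR 4.0.16 in R 4.3.3 (quasi-likelihood F-test, TMM scaling, default filter by group with minimum count 10 and minimum total 15, Benjamini-Hochberg adjustment, threshold 0.05). Each species was fitted alone, and the interaction over all 10 libraries took 1 spread per gene. The SE is the unshrunken log2 fold change over the square root of F. The code was tested on simulated data. Alternatives included DESeq2 1.42.0. Whether pools stem from separate cultures is unstated, and all p-values thus refer to the spread among these pools, part of which may be technical.

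Named genes were the 8 lowest D. virilis ratios, the 4 with most reads in D. virilis controls, 3 on either side of the ratio bound, interaction calls and the 2 at each edge of the D. montana band, with others marked as chosen later or given because a count turned on them. The genes, lists and rules were chosen with earlier results of these data known. Planned lists by gene symbol could not be matched and were not tested.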

Additional observations from a re-analysis of the deposited data

Results flagged for a closer look

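Acclimation responses of 5 of the 208 genes differed between D. virilis and D. montana in edgeR's interaction test, D. virilis change minus D. montana change. The rule used both changes, and species cannot be told apart from strain, pool size or stated age. The main fit and every alternative took 1 spread per gene for both species. In the main fit the common coefficient of variation was 18.2%, against 25.1% in D. virilis alone, so the adjusted p-values may be too small. The differences in log2 fold change were −2.41 for FBgn0201648, −2.69 for FBgn0206770, −3.81 for FBgn0206911, −1.92 for FBgn0205361 and −3.48 for FBgn0210854. Those of FBgn0201648, FBgn0206770 and FBgn0206911 passed in all 15 alternatives (highest edgeR or DESeq2 adjusted p 0.0098, 0.0098 and 0.020). FBgn0205361 missed the threshold in 6 of 15 (highest adjusted p 0.115, without D. virilis control 2) and FBgn0210854 in 9 of 15 (highest adjusted p 0.101, without D. montana acclimated 3). No group had 4 or more libraries, so no search for single outlying libraries was made.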

How the results depend on the processing

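The number of genes meeting the rule was 131 with a pseudocount of 5 CPM, 131 with a minimum mean of 20 CPM, 77 and 468 with a D. virilis ratio of 0.4 or 0.6, and 108 with a D. montana band of 1/1.1 to 1.1. Leaving out each library in turn gave 178 to 567. TMM-scaled library sizes gave 145 genes, 134 of them among the 208. Genes called in D. virilis, 24 in either direction, numbered 86 with DESeq2's Wald test, 398 with no filter and 42 with a replicate block, and 4 to 214 without single libraries. Of the chosen genes, 3 were called lower there. The count was 5 with plain library sizes, 7 with DESeq2, 41 with no filter and 4 with the replicate block. Of the 7692 genes tested, 10 were called lower, against 18 with plain library sizes, 29 with DESeq2 and 18 with the replicate block. With no filter, 144 of the 13038 tested genes were called lower, so calls rose over all genes too. Interaction calls, 22 in all, numbered 56 with DESeq2, 80 with no filter, 17 with the replicate block and 14 to 194 without single libraries. Of the chosen genes, 5 were called with a more negative change in D. virilis (2.40%, against 0.143% of all tested genes). The counts were 8 with DESeq2 (3.85%, against 0.316%), 12 with no filter (5.77%, against 0.298%) and 3 with the replicate block (1.44%, against 0.102%). The causes were not tested. A library left out of D. virilis leaves 1 in its group, which is then assumed to vary like the other group.

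Replicate numbers were not treated as pairs in the main fits. Deviations from group means of same-numbered libraries correlated at −0.0054 in D. virilis and −0.30, −0.19 and −0.18 in D. montana. With 2 libraries in a group the deviations mirror each other, and libraries of different number were not compared. These values therefore cannot exclude a pairing. Over the named genes' fold changes, no called value changed sign, 17 values lost and 30 gained a call. Depth limits the D. virilis values, with 12 and 24 reads for the median chosen gene in the acclimated libraries.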
